A study of Mus musculus with 24 samples.

Results

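Levels reached after interferon beta (IFN beta) were compared between ID8 cells that carried a CRISPR empty vector (EV) and untransfected ID8 cells (WT). The comparison used 6 of the 24 libraries of the study, 3 of treated EV cells and 3 of treated WT cells, and covered all expressed genes. ID8 is a mouse ovarian cancer line, and per the labels all groups of the study, EV and WT included, are knockouts of Trp53 and Brca2. Transcripts counted to both genes were present: Trp53 had 87 unique molecular identifiers (UMIs, each standing for 1 captured RNA molecule) over the treated EV libraries and 99 over the treated WT libraries, and Brca2 had 171 over the treated EV libraries and 103 over the treated WT libraries. Brca2 was called higher in EV, by 0.81 after treatment (edgeR adjusted p = 0.00107) and by 0.54 before it (adjusted p = 0.0181). Per-gene counts do not show whether a transcript carries the edit. The treated EV and treated WT cells received 10000 IU/ml of recombinant mouse IFN beta for 3 h, and untreated EV and untreated WT cells were their baseline. EV and WT cells both have the Ifnar1 gene intact; the other 12 libraries came from Ifnar1 knockout clones and served here only to estimate the spread. The labels call the 3 libraries of each group technical replicates, all treated on 1 date, and p-values therefore cover technical spread alone. EV and WT were 1 line each, and the labels do not say whether the EV line was a clone or a pool, so a difference between these lines cannot be told apart from a difference that any other derived line would show.

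IFN beta binds a receptor made of IFNAR1 and IFNAR2, and the attached kinases JAK1 and TYK2 phosphorylate STAT proteins. These join IRF9, and the complex binds the interferon-stimulated response element in the promoters of antiviral, antigen-processing and signalling genes. Feedback inhibitors such as USP18 and SOCS1, which are themselves induced, then limit the signal.

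Libraries of treated EV cells held 2448590, 2748631 and 2340762 UMIs. Libraries of treated WT cells held 2631871, 2876171 and 2456253 UMIs. Of 24614 genes in the table, 11698 (47.5%) had enough UMIs to be tested, and they took 99.5% to 99.6% of the UMIs of each treated library. Levels are given as CPM (the gene's count scaled to the library's total), which are not scaled by gene length, so levels are compared between groups and not between genes. Differences are log2 values of EV over WT from edgeR's quasi-likelihood test, with normalization factors and the Benjamini-Hochberg adjusted p over all 11698 genes; a gene was called at an adjusted p below 0.05. Fitted errors are standard errors (SE). Mesothelial and ovarian surface markers of the line were present in all treated libraries, from 157 CPM of Wt1 in the lowest EV library to 1250 CPM of Krt18 in the highest WT library among Krt8, Krt18, Krt19, Wt1, Msln and Upk1b. Pax8 and Epcam had 0 UMIs in the 6 treated libraries, Cdh1 had 3, Krt7 had 5 and Muc16 had 13.

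A gene was taken as induced where the response averaged over EV and WT, with equal weight, was at least 1 on the log2 scale with an adjusted p below 0.05. This rule was met by 277 genes, 2.37% of those tested. It used the treated libraries of both lines alike and left the sign of EV over WT free.

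Induced genes that were called different were mostly at a lower level in treated EV cells than in treated WT cells. Of the 277 induced genes, 82 (29.6%) were lower and 14 (5.05%) were higher in EV, and 181 were not called. Over all tested genes the calls were balanced: 1106 (9.45%) were lower and 1135 (9.7%) were higher in EV. The median log2 difference of the induced genes was -0.28, with quartiles of -0.48 and 0.02, beside a median of -0.00 over all tested genes. A difference below 0 was found for 204 induced genes (73.6%), against 5864 of all tested genes (50.1%). The 3 EV libraries all lay below the 3 WT libraries for 111 induced genes (40.1%) and all above them for 24 (8.66%); over all tested genes these shares were 17.3% and 18.0%. In RNA from whole cultures, a lower level in every cell and fewer responding cells cannot be told apart.

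Transcripts of the mitochondrial genome, given as a sign of RNA quality, took 1.51%, 1.57% and 1.33% of the treated EV libraries and 1.69%, 1.38% and 1.82% of the treated WT libraries. Of its 13 protein-coding genes, 2 (15.4%) were lower and none higher in EV, beside 9.45% and 9.7% of all tested genes. The part of these transcripts in the lower levels was not tested.

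The UMIs of all induced genes together made up 2.18%, 2.47% and 2.24% of the treated EV libraries and 2.91%, 2.50% and 2.93% of the treated WT libraries. Every EV library lay below every WT library, but the second WT library exceeded the second EV library only narrowly. The means were 2.30% ± 0.15 in EV and 2.78% ± 0.24 in WT (SD, n = 3 each), a log2 ratio of -0.28 for EV over WT. A two-sided exact permutation test over the 6 libraries gave p = 0.1, the smallest value that 3 libraries against 3 allow. Before treatment the same genes took 0.498%, 0.478% and 0.552% of the untreated EV libraries and 0.457%, 0.598% and 0.493% of the untreated WT libraries. These ranges overlapped, and the same exact permutation test gave p = 0.9 (n = 3 each).

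**Figure D1:**
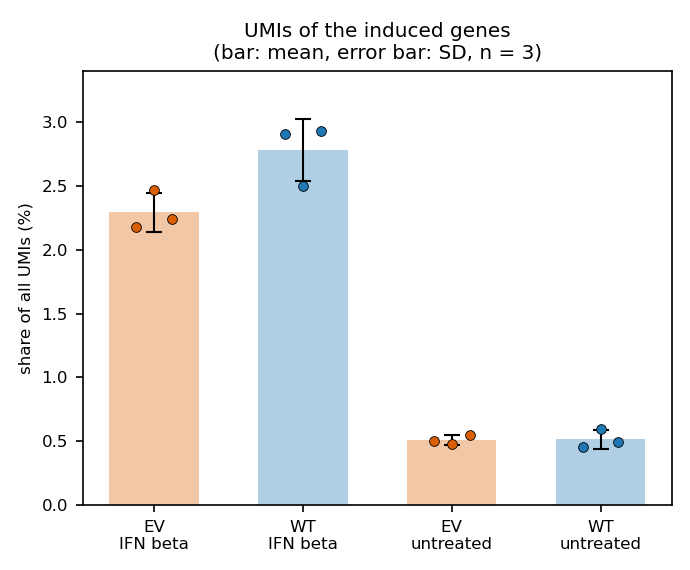
Share of all UMIs taken by the 277 induced genes in each library, in percent; bars are means, error bars SD of 3 libraries, and points libraries. The treated EV libraries lie between 2.18% and 2.47% and the treated WT libraries between 2.50% and 2.93%, while the untreated groups overlap.

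Lower calls outnumbered higher ones in each range of induction. Among the 144 genes with a mean response between 1 and 2 on the log2 scale, 43 were lower and 6 higher in treated EV, with a median difference of -0.27. Among the 69 genes with a response between 2 and 4, 18 were lower and 6 higher, with a median of -0.26. Among the 64 genes induced by 4 or more, 21 were lower and 2 higher, with a median of -0.40. The count of calls followed the abundance of the gene: of the 59 induced genes above 7 on the log2 CPM scale 33 were lower and 3 higher in EV, and of the 39 induced genes below 3, where counts are few, 4 were lower and 1 was higher. Genes that IFN beta lowered in the mean of the lines (a log2 response of -0.5 or less, 116 genes or 0.992% of those tested) had a median difference of -0.15. Of these genes, 10 (8.62%) were higher and 15 (12.9%) lower in treated EV, beside 9.7% and 9.45% of all tested genes.

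**Figure D2:**
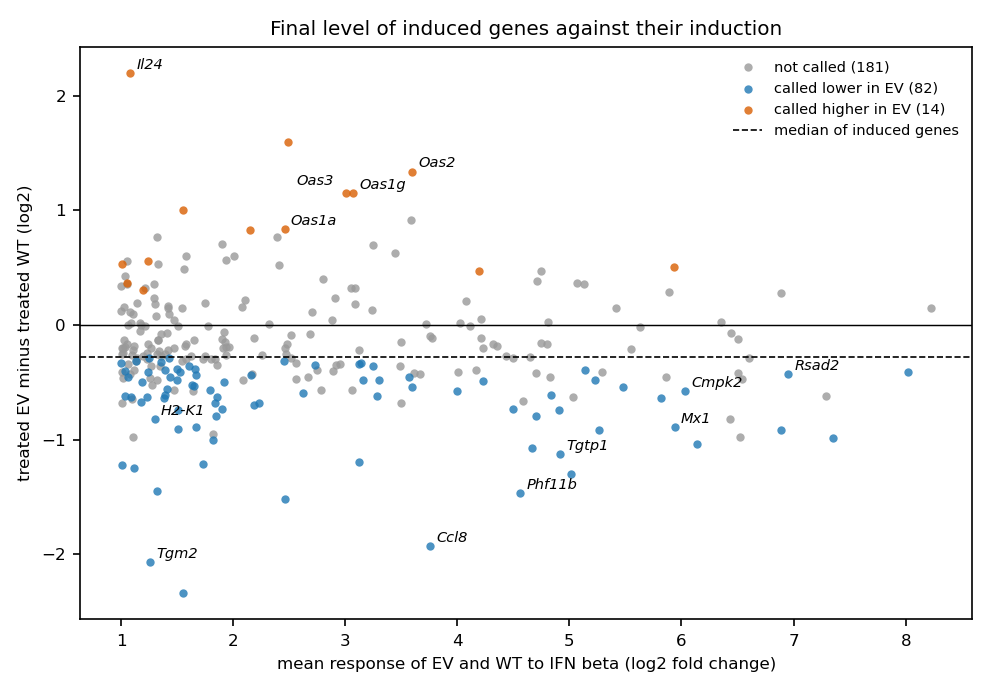
Each point is an induced gene; the x axis is its mean log2 response to IFN beta in EV and WT, and the y axis is the log2 difference of treated EV over treated WT. The 82 genes called lower spread over the whole range of induction, with the median of all 277 (dashed) at -0.28, while Oas1a, Oas1g, Oas2 and Oas3 lie above 0.

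Among the components that carry the signal, Ifnar1 had 8.98, 12.4 and 12 CPM in treated EV libraries and 16.7, 13.6 and 13.8 CPM in treated WT libraries. Its log2 difference was -0.40 (SE 0.23) with an edgeR adjusted p = 0.242, so it was not called although the libraries did not overlap. Ifnar2, the other receptor chain, had a log2 difference of -0.54 (SE 0.20, adjusted p = 0.0522), and 6 alternatives called it lower, with adjusted p between 0.0164 and 0.0485. Jak1 had 70.2, 80.0 and 73.1 CPM in EV and 98.8, 77.5 and 101 CPM in WT, a log2 difference of -0.31 (edgeR adjusted p = 0.0331). The second WT library of Jak1 lay among the EV libraries, and the call was lost under 7 alternatives, with an adjusted p of up to 0.189. Tyk2 differed by 0.11 (adjusted p = 0.848).

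All 12 tested STAT and IRF factors and their partners, 11 of them induced, had a difference below 0, beside 50.1% of all tested genes. In treated EV 5 (41.7%) were called lower, beside 9.45% of all tested genes and 29.6% of the induced genes. Stat3, a transcription factor of several cytokines, had 124, 117 and 122 CPM in EV and 224, 191 and 190 CPM in WT. The libraries did not overlap, and the log2 difference was -0.74 (SE 0.09, edgeR adjusted p = 6.03e-09). Stat3 was already lower in untreated EV, by -0.86 (adjusted p = 1.16e-07). Ifi35 and Nmi, partners that bind each other, were lower by -0.50 and -0.44, and Irf2, a repressor of IRF1 targets, by -0.39; Irf2 was lower in untreated EV too, by -0.52. Stat2 and Irf9, which join in the complex, were not called: Stat2 differed by -0.22 (adjusted p = 0.164) and Irf9 by -0.11 (adjusted p = 0.645). Irf7, an induced amplifier of interferon genes, differed by -0.43 with an adjusted p = 0.145 here, 0.00906 by limma-voom and 7.73e-05 where the compared groups were fitted alone.

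Over all tested genes, 9.45% were lower and 9.7% higher in treated EV. Of 11 tested feedback inhibitors, none was lower and 1 (9.09%) was higher, which is near that share. That gene was Ptpn2, a phosphatase that acts on JAK1, with 92.7, 84.4 and 89.3 CPM in EV and 66.1, 65.4 and 65.1 CPM in WT (log2 difference 0.43, edgeR adjusted p = 0.00154). Ptpn2 was not induced, and it was also higher in untreated EV, by 0.50 (adjusted p = 0.00047). Usp18 had 212, 261 and 202 CPM in EV and 353, 244 and 329 CPM in WT, with the second WT library below the second EV library (log2 difference -0.45, adjusted p = 0.064; 5 alternatives called it lower, with adjusted p between 0.00291 and 0.0495). Socs1 differed by -0.16 (adjusted p = 0.376). The 6 tested genes of ISG15 conjugation, which links the ubiquitin-like ISG15 to proteins, all lay below 0 with a median of -0.40, and edgeR called none of them. Isg15 itself differed by -0.41 (edgeR adjusted p = 0.221), and it was called lower by limma-voom (adjusted p = 0.0148) and where the compared groups were fitted alone (adjusted p = 4.84e-05).

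**Figure D3:**
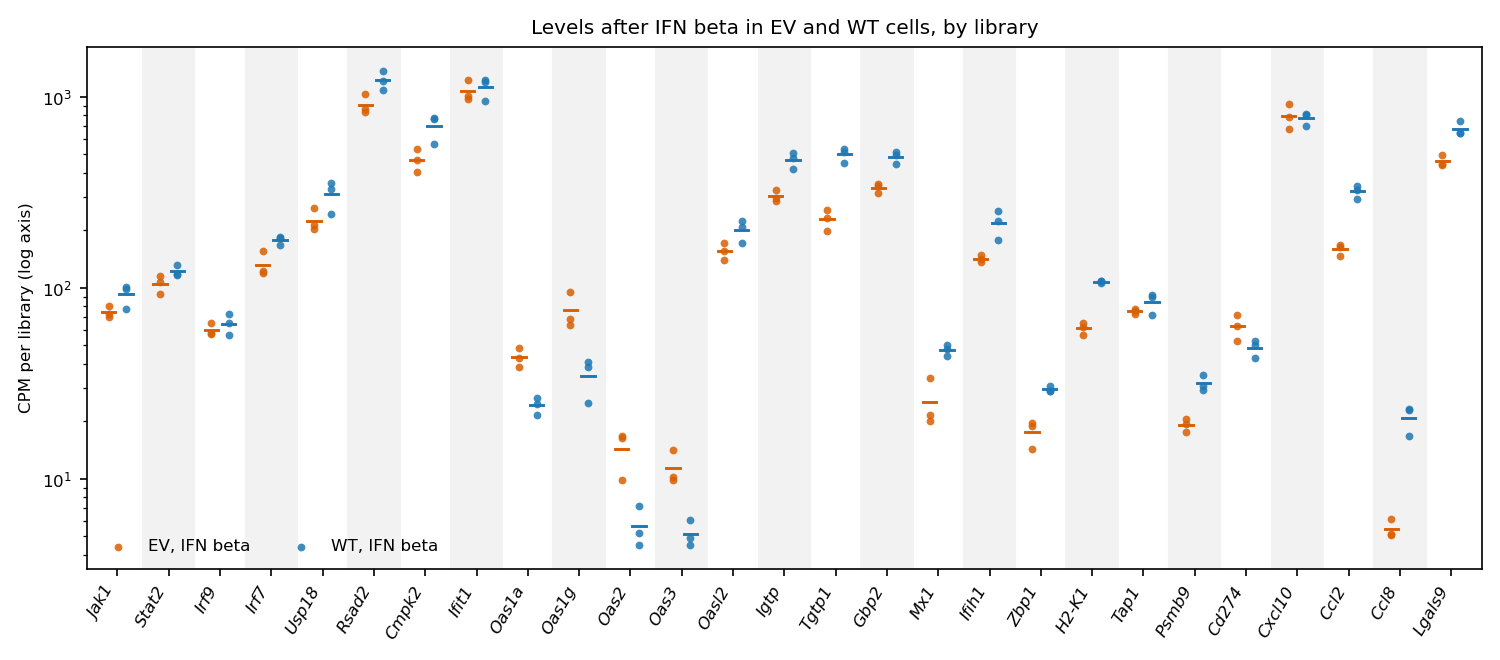
CPM of selected genes after IFN beta in each library on a log axis, with EV to the left of WT; points are libraries and bars means of 3. Igtp, Tgtp1, Gbp2, H2-K1 and Ccl2 lie lower in EV in every library, Oas1a to Oas3 lie higher, and Cxcl10 and Ifit1 overlap.

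Antiviral effectors were split. Of 58 tested, 10 (17.2%) were lower and 5 (8.62%) higher in treated EV, beside 9.45% and 9.7% of all tested genes. Their median was -0.08, and all 5 that were higher belonged to the Oas or Ifit families. Promoters of 3 Oas genes that were higher and of 3 induced genes that were lower are shown as examples with a match to the same element; they were picked for holding one. Among other genes lower in EV whose promoters were searched, Tgtp1, Tgtp2, Irgm1 and Phf11b also held a match. Cmpk2, Ccl8, Psmb9, H2-K1 and Phf11d had no match in the window of these promoters. They come from RefSeq on GRCm38.p6, 5′ to 3′ on the strand of the gene, from 250 bases before the start to 50 after it, and capitals mark matches on either strand to a core of the interferon-stimulated response element, GAAA, any 2 bases and GAAA again. That motif was found in 3.44% of the 32851 promoters of the table. Promoters were at hand for 208 of the 277 induced genes (75.1%), which is under 80%, so its share among induced genes is not given. The regions are chr5:120907476-120907775 (minus strand), chr5:120887564-120887863 (minus strand) and chr5:120777610-120777909 (minus strand) for the genes that were higher in EV. For those that were lower in EV they are chr12:26456403-26456702 (minus strand), chr3:142620413-142620712 (plus strand) and chr11:58199306-58199605 (plus strand).
Oas1a: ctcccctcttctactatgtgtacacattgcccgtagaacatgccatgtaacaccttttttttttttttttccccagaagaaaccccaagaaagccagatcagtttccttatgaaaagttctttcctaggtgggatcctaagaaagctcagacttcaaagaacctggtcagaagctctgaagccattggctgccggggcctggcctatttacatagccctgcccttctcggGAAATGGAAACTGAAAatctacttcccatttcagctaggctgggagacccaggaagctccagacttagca
Oas1g: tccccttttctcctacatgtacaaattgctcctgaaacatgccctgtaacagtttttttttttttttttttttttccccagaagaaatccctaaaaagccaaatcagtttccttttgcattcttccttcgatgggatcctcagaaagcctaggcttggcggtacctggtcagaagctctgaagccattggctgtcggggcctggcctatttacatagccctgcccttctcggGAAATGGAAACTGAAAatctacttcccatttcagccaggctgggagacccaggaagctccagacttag
Oas3: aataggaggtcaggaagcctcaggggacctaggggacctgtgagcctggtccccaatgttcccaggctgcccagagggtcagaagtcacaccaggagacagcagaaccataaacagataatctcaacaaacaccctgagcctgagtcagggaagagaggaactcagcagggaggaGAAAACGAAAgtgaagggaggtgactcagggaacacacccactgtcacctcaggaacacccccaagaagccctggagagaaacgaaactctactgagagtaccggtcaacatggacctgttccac
Rsad2: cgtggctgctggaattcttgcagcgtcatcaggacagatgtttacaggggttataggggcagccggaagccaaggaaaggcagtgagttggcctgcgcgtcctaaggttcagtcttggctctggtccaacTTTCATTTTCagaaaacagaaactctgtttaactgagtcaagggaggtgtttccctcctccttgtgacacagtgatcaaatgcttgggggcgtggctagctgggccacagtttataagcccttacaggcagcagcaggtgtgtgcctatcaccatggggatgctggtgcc
Gbp2: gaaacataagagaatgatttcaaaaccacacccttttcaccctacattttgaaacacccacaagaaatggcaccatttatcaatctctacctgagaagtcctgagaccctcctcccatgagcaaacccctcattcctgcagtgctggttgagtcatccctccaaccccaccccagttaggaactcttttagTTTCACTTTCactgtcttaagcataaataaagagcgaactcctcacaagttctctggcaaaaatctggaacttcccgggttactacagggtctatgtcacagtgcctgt
Igtp: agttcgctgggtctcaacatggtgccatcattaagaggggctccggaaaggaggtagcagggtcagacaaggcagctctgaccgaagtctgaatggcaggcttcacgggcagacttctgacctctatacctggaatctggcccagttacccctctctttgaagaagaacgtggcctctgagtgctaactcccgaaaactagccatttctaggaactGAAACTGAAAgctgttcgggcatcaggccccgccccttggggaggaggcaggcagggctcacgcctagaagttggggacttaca

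In Oas1a and Oas1g the capitals hold 2 overlapping matches, which begin 20 and 14 bases before the start in Oas1a and 18 and 12 bases before it in Oas1g. The single match begins 75 bases before the start in Oas3, 120 in Rsad2, 59 in Gbp2 and 34 in Igtp. In Rsad2 and Gbp2 the match is on the opposite strand. A match to these letters is a description of the sequence, and binding was not measured.

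The Oas genes encode enzymes that sense double-stranded RNA and make the activator of RNase L. Of the 7 tested members of the Oas and Oasl family, all of them induced, 4 (57.1%) ended higher in treated EV. This share was 9.7% over all tested genes and 5.05% over the induced genes. Oas1g had 64.1, 95.3 and 68.8 CPM in EV and 38.4, 25 and 40.7 CPM in WT, a log2 difference of 1.15 (SE 0.21, edgeR adjusted p = 0.000349). Oas1a had 38.4, 48.4 and 43.1 CPM in EV and 21.7, 24.7 and 26.5 CPM in WT, a log2 difference of 0.84 (adjusted p = 0.00738). Every EV library lay above every WT library for both. Oas2 had 16.7, 16.4 and 9.83 CPM in EV and 7.22, 5.22 and 4.48 CPM in WT (log2 difference 1.34, adjusted p = 0.000522). Oas3 had 10.2, 14.2 and 9.83 CPM in EV and 6.08, 4.87 and 4.48 CPM in WT (log2 difference 1.15, adjusted p = 0.004); its call was lost by DESeq2 and without the second EV library, with an adjusted p of up to 0.09. The 4 genes lie on chromosome 5 between 120730333 (the start of Oas2) and 120907521 (the end of Oas1a), the coordinates of GRCm38. Oas1b, which lies between them, was not called (log2 difference 0.01), and neither were the more distant Oasl1 (-0.11) and Oasl2 (-0.36) of the same chromosome; Oasl2 was called lower where the compared groups were fitted alone (adjusted p = 0.00124).

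Oas1a and Oas1g were also called higher in EV before treatment. Untreated EV libraries had 17.7, 17.4 and 23.6 CPM of Oas1g, and untreated WT libraries had 0.894, 5.07 and 0.688 CPM, a log2 difference of 3.28 (edgeR adjusted p = 2.88e-05). For Oas1a the untreated levels were 11.6, 10.1 and 18.7 CPM in EV and 0.894, 6.59 and 1.38 CPM in WT (log2 difference 2.31, adjusted p = 0.000311). The response to IFN beta was 2.01 in EV and 4.14 in WT for Oas1g, and 1.72 in EV and 3.20 in WT for Oas1a. The differences of these responses, -2.13 and -1.47, had adjusted p = 0.227 and 0.495 and were not called. Oas1a and Oas1g are close copies of each other, and no source used here says how the authors' counting split reads between such copies, so each value alone is uncertain.

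The antiviral genes that were lower in EV included strongly induced ones. Rsad2, which encodes viperin, had 831, 1030 and 860 CPM in treated EV and 1210, 1090 and 1370 CPM in treated WT, a log2 difference of -0.43 (SE 0.12, edgeR adjusted p = 0.015; up to 0.172 under the alternatives, 4 of which lost the call). Its neighbour Cmpk2, a nucleotide kinase on the opposite strand of chromosome 12, had 467, 530 and 405 CPM in EV and 771, 569 and 762 CPM in WT, a log2 difference of -0.58 (adjusted p = 0.00154; 0.0834 where the compared groups were fitted alone). The libraries did not overlap for either gene. Samhd1, which depletes the nucleotides that viruses need, differed by -0.52 (adjusted p = 2.5e-05), and Apobec3, a cytidine deaminase, by -0.63 (adjusted p = 0.000125). Apobec3 was also lower in untreated EV, by -0.98, whereas Samhd1 was not called there (-0.03). Phf11b and Phf11d, neighbours on chromosome 14, differed by -1.47 and -1.30; for Phf11b, at 1.23 to 3.64 CPM in EV, 3 alternatives lost the call.

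Of 5 tested Ifit genes, whose products bind foreign RNA, 1 was higher and none was lower in EV. Over all tested genes these shares were 9.7% and 9.45%. Ifit1 had 1010, 1220 and 976 CPM in treated EV and 1190, 954 and 1220 CPM in treated WT, with overlapping libraries (log2 difference -0.07, edgeR adjusted p = 0.822). Ifit3 had 412, 470 and 438 CPM in EV and 405, 273 and 404 CPM in WT (log2 difference 0.29, adjusted p = 0.208; 0.021 by limma-voom). Ifit3b, a close copy of Ifit3 with the same uncertainty, was called higher by 0.51 (adjusted p = 0.0424). Ifitm3, a membrane protein that blocks viral entry, differed by -0.19 (adjusted p = 0.611).

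The interferon-inducible GTPases, many of which act on the vacuoles of intracellular parasites and bacteria, were mostly lower in EV. Of 17 tested, all of them induced, 11 (64.7%) were lower and none was higher in treated EV, with a median of -0.45. Over all tested genes 9.45% were lower and 9.7% higher, and over the induced genes 29.6% and 5.05%. All 8 tested immunity-related GTPases were among the lower ones, with a median of -0.71. Tgtp1 had 232, 255 and 199 CPM in EV and 531, 452 and 515 CPM in WT, a log2 difference of -1.13 (SE 0.16, edgeR adjusted p = 7.83e-05). Igtp, shown above by its promoter, had 325, 295 and 286 CPM in EV and 507, 421 and 479 CPM in WT, a log2 difference of -0.64 (adjusted p = 0.00375; 0.359 by DESeq2). In both genes every EV library lay far below every WT library. Tgtp2 differed by -1.04, but Tgtp1 and Tgtp2 are near-identical copies. The annotated span of Olfr56 covers Tgtp1, Tgtp2 and Ifi47, that of Gm12185 overlaps Tgtp1, and that of Irgm2 overlaps Igtp. The single values of all these genes, Igtp included, are therefore uncertain. Irgm1 differed by -0.45 and Iigp1 by -0.41; their adjusted p were 0.0112 and 0.0359, both calls were lost by DESeq2, and that of Iigp1 was lost under 7 alternatives in all, with an adjusted p of up to 0.187. Iigp1 was also the member of the 8 whose EV and WT libraries overlapped. Among the guanylate-binding proteins, Gbp2 had 313, 349 and 341 CPM in EV and 514, 443 and 498 CPM in WT (log2 difference -0.54, adjusted p = 0.000124). Gbp6 was lower as well, by -0.92, whereas Gbp4 and Gbp7 differed by 0.03 and -0.02 and were not called. Mx1, a GTPase that blocks influenza and related viruses, had 21.6, 33.8 and 20.1 CPM in EV and 50.2, 43.8 and 47.6 CPM in WT (log2 difference -0.89, adjusted p = 0.000219).

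Sensors of viral nucleic acid were mostly lower in EV as well: 11 of 16 tested (68.8%) were called lower and none higher, with a median of -0.52. Of the 16, 15 were induced. The share called lower was 9.45% over all tested genes and 29.6% over the induced genes. Ifih1, which encodes the RNA sensor MDA5, had 136, 149 and 141 CPM in treated EV and 225, 177 and 253 CPM in treated WT. The libraries did not overlap, and the log2 difference was -0.62 (edgeR adjusted p = 0.000522). Ddx58, which encodes RIG-I, differed by -0.31 (adjusted p = 0.0259), with the call lost under 6 alternatives. Tlr3, the endosomal receptor of double-stranded RNA, differed by -0.61, and Zbp1, which recognises left-handed nucleic acid, by -0.74, and both of these calls were lost by DESeq2. Of the 8 tested PYHIN genes, a family of DNA sensors with close copies on chromosome 1, 6 were lower, such as Ifi203 by -0.48 (adjusted p = 0.000171). Cgas, the cytosolic DNA sensor, was not called, with a difference of 0.36 (adjusted p = 0.0648).

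Antigen-processing genes were mostly lower in EV, with 13 of 21 tested (61.9%) called lower and 1 (4.76%) higher, and a median of -0.41. Over all tested genes these shares were 9.45% and 9.7%. Of the 21, 11 were induced, and of these 7 were lower and 1 was higher, beside 29.6% and 5.05% of all induced genes. In untreated EV, 5 of the 21 were lower and 1 was higher, beside 7.14% and 6.96% of all tested genes. H2-K1, a classical class I heavy chain, had 56.4, 65.1 and 62.4 CPM in treated EV and 109, 106 and 108 CPM in treated WT, a log2 difference of -0.82 (SE 0.12, edgeR adjusted p = 1.3e-07). The EV and WT libraries were far apart, though class I heavy chain genes are close relatives and each value alone is uncertain. The immunoproteasome subunits Psmb8, Psmb9 and Psmb10 differed by -1.07, -0.73 and -0.38, and the activator subunits Psme1 and Psme2, which were not induced, by -0.59 and -0.60. Psmb10, Psme1 and Psme2 were already lower in untreated EV, by -0.38, -0.58 and -0.44, while Psmb8 and Psmb9 were not called there. DESeq2 lost the calls of Psmb8 and Psmb9, with adjusted p of 0.0657 and 0.0523. The peptide transporter subunit Tap2 differed by -0.73 (adjusted p = 0.0372, lost under 4 alternatives), while Tap1 did so by -0.17 (adjusted p = 0.535). B2m, the light chain of class I, was not called (log2 difference -0.13, adjusted p = 0.164). H2-M3, a non-classical heavy chain that presents formylated peptides, was the member that was higher, with 27.8, 26.6 and 29.1 CPM in EV and 19.0, 18.1 and 19.5 CPM in WT (log2 difference 0.56, adjusted p = 0.0164, lost under 4 alternatives).

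Among ligands of immune checkpoints, Lgals9, which encodes galectin-9, had 438, 496 and 446 CPM in treated EV and 650, 647 and 747 CPM in treated WT, a log2 difference of -0.57 (edgeR adjusted p = 3.96e-05). Cd47 and Nectin2, which are not induced, were lower by -0.31 and -0.50. Cd274, which encodes PD-L1, had 63.3, 72.4 and 52.5 CPM in EV and 50.2, 42.8 and 52.5 CPM in WT. Its log2 difference of 0.38 had an adjusted p = 0.0566, and 4 alternatives brought it below 0.05, with values between 0.0136 and 0.0418.

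Of 16 tested chemokines and cytokines, 4 were lower and 2 higher in treated EV. Ccl2, which attracts monocytes, had 146, 168 and 164 CPM in treated EV and 327, 293 and 340 CPM in treated WT, a log2 difference of -1.0 (SE 0.08, edgeR adjusted p = 1.25e-14). Ccl7, its neighbour on chromosome 11 and a ligand of overlapping receptors, differed by -1.21 (adjusted p = 1.94e-06). Both were also lower in untreated EV, by -1.28 and -1.38. Ccl8 had 6.13, 5.09 and 5.13 CPM in EV and 22.8, 16.7 and 23.2 CPM in WT, a log2 difference of -1.93 (adjusted p = 1.02e-07), without a call before treatment (1.57, adjusted p = 0.241). Cxcl10, which attracts T cells, had 680, 915 and 783 CPM in EV and 805, 705 and 817 CPM in WT and was not called (log2 difference 0.03, SE 0.15, adjusted p = 0.916). Ccl20 and Lif, which were not induced, were higher in EV, by 1.27 and 1.13; the call of Ccl20 was lost under 7 alternatives.

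Some induced genes with wide gaps were outside these groups. Tgm2, a transglutaminase that cross-links proteins, had 27.8, 31.3 and 26.9 CPM in treated EV and 114, 122 and 127 CPM in treated WT, a log2 difference of -2.07 (SE 0.12, edgeR adjusted p = 1.21e-20). It was also lower in untreated EV, by -1.50. Pik3ip1, an inhibitor of phosphoinositide 3-kinase, and the chemokine Cxcl17 differed by -1.45 and -1.25, and both were lower before treatment as well, by -2.21 and -1.49. In the other direction, Il24, a cytokine of the IL-10 family, had 13.1, 10.9 and 7.69 CPM in EV and 1.90, 2.43 and 2.44 CPM in WT (log2 difference 2.20, adjusted p = 2.12e-06), and it was higher in untreated EV too, by 2.87. Gnb4, a G-protein subunit, followed with 0.83 after treatment and 1.72 before it, and the cytoskeletal linker Eppk1 with 1.00 (adjusted p = 0.00342; 0.1 where the compared groups were fitted alone).

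Differences before treatment were set beside these final levels, from 6 other libraries. Over all tested genes, untreated EV had 814 higher (6.96%) and 835 lower (7.14%) genes. Among the induced genes, 16 were higher and 19 lower in untreated EV, with a median of -0.04. Of the lower calls after treatment, 16 of the 82 (19.5%) were also lower in untreated EV, and these made up 84.2% of the 19 that were lower there. Over all tested genes, 577 of the 1106 lower calls (52.2%) were also lower in untreated EV, 69.1% of the 835 there. Of the 14 induced genes that were higher in treated EV, 6 were already higher in untreated EV. No gene was called in opposite directions before and after treatment. Of the 242 induced genes with no call before treatment, 66 were lower and 8 higher in treated EV, with a median of -0.28. Across the 277 induced genes the treated and untreated differences correlated at r = 0.557, and across all 11698 tested genes at r = 0.686; genes are not independent, and the same 2 lines gave both.

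**Figure D4:**
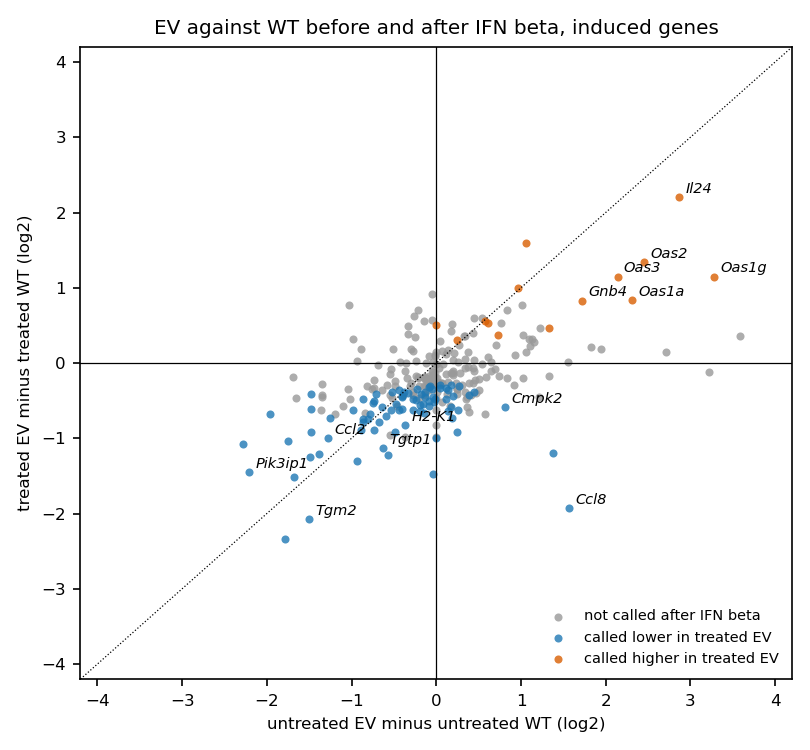
Log2 difference of EV over WT in untreated cells (x axis) and in treated cells (y axis) for the induced genes, with the dotted line where both are equal. Tgm2, Ccl2 and Pik3ip1 lie low on both axes and Oas1a, Oas1g and Il24 high on both, while Cmpk2, among the 66 genes called lower after treatment with no call before it, lies above 0 on the x axis.

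The change from before to after treatment was itself compared between the lines, since a call in treated cells alone does not show it. Of 11698 genes, 3 (0.0256%) had a larger and 2 (0.0171%) a smaller log2 response in EV than in WT by edgeR (0.0427% together), with 805 at an unadjusted p below 0.05. DESeq2 called 0 larger and 1 smaller, with 511 at that unadjusted p, and limma-voom 0 and 1, with 837. The median difference of the response over the induced genes was -0.20, beside 0.01 over all tested genes. The only induced gene among the 5 called was 9930111J21Rik2, with a response of 1.67 in EV and 2.55 in WT. Rsad2 shows how wide the error of this difference is: its response was 6.54 in EV and 7.37 in WT, a difference of -0.83 (SE 0.43, adjusted p = 0.762).

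Outside the induced genes, EV and WT differed in many genes, and of all tested genes 131 (1.12%) were at least 2-fold higher and 207 (1.77%) at least 2-fold lower in treated EV. Fosl1, a subunit of the AP-1 transcription factor, had 79.2, 68.4 and 68.8 CPM in treated EV and 15.6, 12.2 and 16.3 CPM in treated WT, a log2 difference of 2.30 (SE 0.15, edgeR adjusted p = 2.94e-19). Myc had 163, 165 and 159 CPM in EV and 93.1, 70.2 and 68.0 CPM in WT (log2 difference 1.07, adjusted p = 1.54e-11). Both were also higher in untreated EV, by 2.1 and 1.1. With them, 9 of 17 tested immediate early genes (52.9%) were higher and 1 (5.88%) lower in treated EV, with a median of 0.32. In untreated EV, 8 of the 17 were higher and 1 lower, with a median of 0.47. Of 44 tested cell cycle genes, 24 (54.5%) were higher and 1 (2.27%), Ccnb2, was lower, with a median of 0.28. Before treatment 14 of the 44 were higher and 1 lower, with a median of 0.23. Over all tested genes, 9.7% were called higher and 9.45% lower after treatment, and 6.96% and 7.14% before it. Ccnd1, which encodes cyclin D1, had 529, 623 and 586 CPM in treated EV and 340, 299 and 313 CPM in treated WT (log2 difference 0.87, adjusted p = 1.84e-13). It was also higher in untreated EV, by 0.44. Cdkn1a, an inhibitor of cyclin-dependent kinases on the same list, was higher as well, by 1.47 after treatment and 1.76 before it. Trp53 transcripts differed by -0.11 after treatment (adjusted p = 0.79).

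Matrix genes were split, with 9 of 18 tested higher, such as Fn1 by 0.59, and 4 lower, such as Lox by -1.53. Genes of the unfolded protein response also split, with 5 of 26 tested higher and 7 lower. Chac1 and Trib3 were higher by 1.47 and 1.11, and Ddit3, Xbp1 and Hsp90b1 were lower by -1.03, -0.82 and -0.52. Of 30 tested cell death genes 4 were higher and 3 lower, of 15 tested NF-kB targets 2 were higher and 2 lower, and of 29 tested genes of cholesterol and fatty acid synthesis 4 were higher and 5 lower. Of 20 tested genes of hypoxia and glycolysis 2 were higher and 3 lower, of 21 of homologous recombination 3 were higher and none lower, and of 17 tested p53 targets 4 were higher and 2 lower. These shares stand beside 9.7% higher and 9.45% lower over all tested genes.

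**Figure D5:**
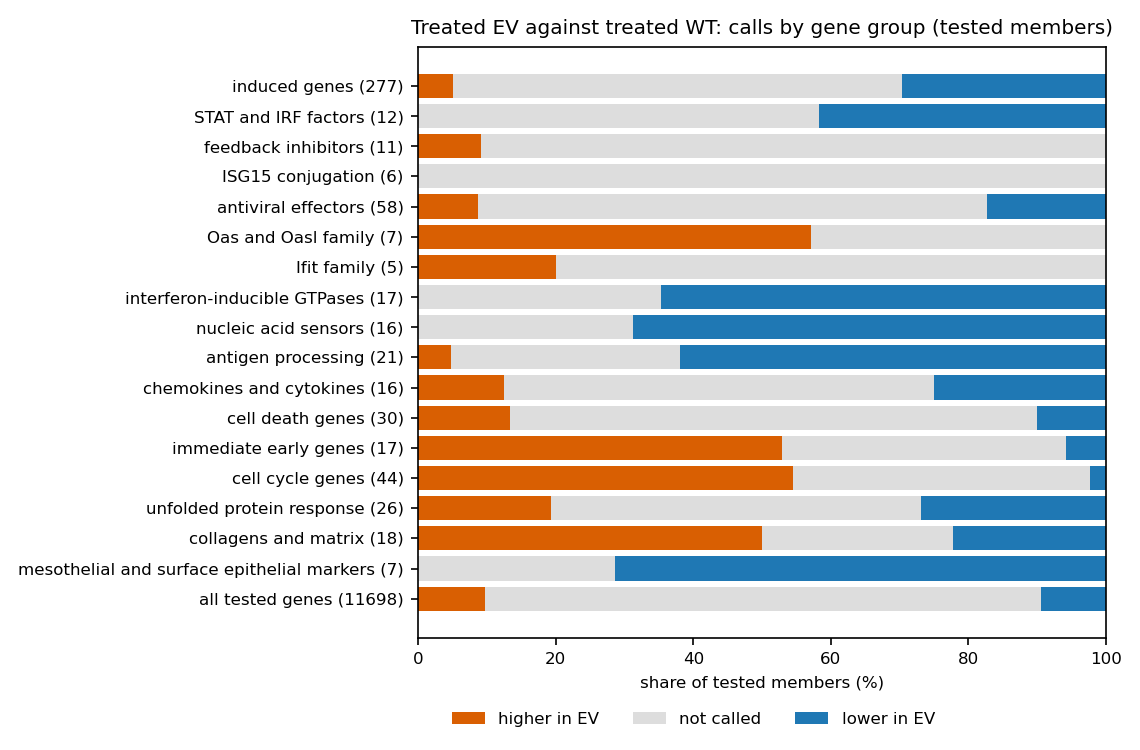
Share of tested members of each gene group that were called higher (orange), not called (grey) or called lower (blue) in treated EV over treated WT, in percent, with the number tested in brackets. The GTPases, the nucleic acid sensors, the antigen-processing genes and the mesothelial and surface epithelial markers each have over 60% of their members called lower, against 9.45% of all tested genes.

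All 7 tested mesothelial and surface markers had EV libraries below WT libraries, and 5 were called lower. Over all tested genes these shares were 17.3% and 9.45%. In untreated EV, 3 of the 7 were called lower and 1 higher, beside 7.14% and 6.96% of all tested genes. Krt19 had 553, 529 and 537 CPM in treated EV and 916, 1090 and 979 CPM in treated WT, a log2 difference of -0.89 (SE 0.06, edgeR adjusted p = 1.02e-17). Wt1, a transcription factor of the mesothelium, had 157, 171 and 168 CPM in EV and 250, 222 and 232 CPM in WT (log2 difference -0.51, adjusted p = 1.19e-06). Upk3b differed by -2.73, and Krt18 by -0.12 without a call. The calls in untreated EV were Krt19, Wt1 and Upk3b, lower by -0.73, -0.74 and -2.7, and Krt18, higher by 0.21. The summed level of this list was 2990 to 3075 CPM in EV and 3850 to 4098 CPM in WT. Of 24 leukocyte markers 1 had enough UMIs to be tested, Cd14, which was not called, and the list summed to 16.7 to 18.8 CPM in EV and 12.5 to 19.1 CPM in WT. Of 16 endothelial markers 2 were tested; Flt1 was lower in EV by -0.79 and Esam was not called, and the list summed to 23.7 to 31.6 CPM in EV and 36.5 to 40.7 CPM in WT. The part of these 3 lists in the levels of the induced genes was not tested.

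The widest gaps of all were in genes that were not induced and that were nearly silent in 1 of the lines. Arhgdib had 2.04, 1.82 and 3.84 CPM in treated EV and 40.3, 38.9 and 46.0 CPM in treated WT, 16.2-fold lower in EV (log2 difference -4.02, SE 0.25, edgeR adjusted p = 1.81e-19). Xist, the RNA that silences an X chromosome, had 1 UMI over the 3 treated EV libraries and 70 over the treated WT libraries, a ratio of 66.3 with an exact 95% interval of 11.5 to 2650 that covers counting error only. Flrt1 likewise had 1 UMI in EV and 61 in WT, and Rab38 had 0 in EV and 22 in WT, at least 6.94-fold lower if 3 UMIs are taken as the upper limit for the 3 EV libraries together. In the other direction, Il2rg, the common cytokine receptor chain, had 13.5, 16.7 and 19.2 CPM in EV and 0.76, 1.04 and 2.44 CPM in WT, 11.5-fold higher in EV (log2 difference 3.53, adjusted p = 1.05e-11). Slc14a1, a urea transporter, was 8.47-fold higher (log2 difference 3.08), and the collagen gene Col5a1 and the peroxidase gene Pxdn were higher by 3.22 and 3.24 on the log2 scale. All of these genes were also called in the same direction in untreated cells, where the other 6 libraries gave a log2 difference of -3.89 for Arhgdib, -7.75 for Xist and 2.88 for Il2rg.

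The calls were unevenly placed on the chromosomes. On chromosome 18, 29.6% of 314 tested genes were higher and 3.82% lower in treated EV, with a median difference of 0.24. On chromosome 14 the shares were 3.72% higher and 17.9% lower with a median of -0.12, and on chromosome 11 they were 6.77% and 14.5% with a median of -0.07. Chromosome 11, which carries Igtp, Irgm1, Tgtp1, Tgtp2, Ccl2, Stat3 and Lgals9, held 38 induced genes, of which 18 were lower and none higher in EV. Ptpn2 lies on chromosome 18 and the Oas genes on chromosome 5, where 13.8% of tested genes were higher and 5.37% lower. The part of the chromosomes in the levels of the induced genes was not tested.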

How the data were processed

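The authors deposited whole-number UMI counts per Ensembl gene, without normalization, for 24 libraries of 3′ multiplexed RNA sequencing; per the labels, a UMI of its own marked each captured molecule. The submitters' processing notes name the builds mm10 and GRCm38, and the tools cutadapt 3.0, limma 3.50.0, edgeR 3.36.0 and R 3.6.2 and 4.1.2; the aligner and the treatment of reads from close gene copies are not given in the sources used here.

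Groups came from the sample labels. Counts were fitted with edgeR 4.0.16 in R 4.3.3 (TMM factors, filterByExpr with a minimum count of 10, robust quasi-likelihood fit of 8 group means over 24 libraries), and the treated contrast used 3 EV and 3 WT libraries. CPM values are per library total, without TMM factors. Treated libraries held 2340762 to 2876171 UMIs and 16139 to 16622 detected genes; no 2 replicates held identical values. On simulated counts of this comparison for 11628 genes, 41.8% of genes changed 1.5-fold were called, 79.1% changed 2-fold and 92.4% changed 4-fold; of 150 calls, 8 were of unchanged genes.

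Named genes were landmark genes of the pathway, the 8 called genes with the largest difference per direction among induced and among other genes, and up to 4 called members of each gene list, with members that were not called where few. Genes named beyond these rules were chosen after their values were seen. Some genes that met them are not reported here. Members, lists and gene families were chosen with earlier results of these data known. Gene positions are from GENCODE M21 on GRCm38, and promoters from RefSeq. Alternatives were RLE size factors, DESeq2 1.42.0, limma-voom (limma 3.58.1), other count filters, a replicate block, the compared groups alone, thinning to 1972192 UMIs, a stricter rule for induced genes, and leaving out each library.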

Additional observations from a re-analysis of the deposited data

Results flagged for a closer look

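The difference between the EV and the WT response to IFN beta was tested for each gene, and 5 genes passed at an adjusted p below 0.05 by edgeR. Gm6475, a predicted gene on chromosome 17, had 15.5, 14.6 and 17.1 CPM in treated EV and 42.6, 39.6 and 30.1 CPM in treated WT, against 24.9, 19.1 and 20.3 CPM in untreated EV and 17.9, 21.3 and 18.6 CPM in untreated WT. Its response was -0.41 in EV and 1.02 in WT, a difference of -1.43 (SE 0.26, adjusted p = 0.00743). The gene 9930111J21Rik2 started higher in untreated EV (51.4, 39.8 and 40.7 CPM, against 20.1, 20.3 and 20.6 CPM in untreated WT) and ended at a level that was not called different (124, 151 and 131 CPM in treated EV, against 125, 101 and 123 CPM in treated WT). Its responses differed by -0.88 (adjusted p = 0.0299). The other 3 had a response below 0 in WT and nearer to 0, or above it, in EV. Ssr1, a subunit of the translocon-associated complex, had a response of 0.20 in EV and -0.34 in WT, a difference of 0.54 (adjusted p = 0.0299). Nrn1, which encodes neuritin, had a response of -0.24 in EV and -0.80 in WT, a difference of 0.55 (adjusted p = 0.0473). Rrm2, a subunit of ribonucleotide reductase, had a response of 0.08 in EV and -0.50 in WT, a difference of 0.59 (adjusted p = 0.0473). DESeq2 and limma-voom each called 1 gene of this kind and edgeR 5, so these results depend on the tool.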

How the results depend on the processing

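The treated comparison kept its balance of calls: 1135 higher and 1106 lower by edgeR, 834 and 836 by DESeq2, and 1323 and 1261 with the compared groups fitted alone. Of 111 called genes named by the rules, none changed sign under any alternative, and DESeq2 lost 22 calls. Of the 82 induced genes lower in EV, 60 were also called lower by DESeq2 and 82 by limma-voom. With the compared groups alone, 22 induced genes were higher and 100 lower in EV; with induction of at least 2 on the log2 scale, 133 genes were induced, 8 of them higher and 39 lower. The difference of responses moved most. It gave 0 larger and 1 smaller by DESeq2 and by limma-voom, 51 and 25 without a filter, 20 and 10 with the compared groups alone, and 1 larger with a minimum count of 30 and 1 with thinning.

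Leaving out each library in turn gave 836 to 1001 higher and 838 to 939 lower genes in treated EV, and 552 to 750 higher and 551 to 708 lower genes in untreated EV, where 551 was the count without the third untreated WT library. Induced genes numbered 271 to 287, with 9 to 18 higher and 61 to 92 lower in EV, 9 being the count without the second treated WT library. Their median difference ranged from -0.35 to -0.20 and the log2 ratio of their summed CPM from -0.35 to -0.24. The difference of responses gave 0 to 12 larger and 0 to 21 smaller, with 12 and 7 without the third untreated EV library and 21 smaller without the second untreated WT library.

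Replicate numbers were not taken to pair the samples: same-numbered libraries correlated at -0.0775 to 0.083 over 84 pairs, and 7 of 24 libraries lay closest to a library of their own number. With the replicate number as a block, 1171 genes were higher and 1132 lower in treated EV, 831 and 851 in untreated EV, 15 and 83 among the induced genes, and 8 and 6 in the difference of responses. The cause of these shifts was not tested. Depth limits genes of few UMIs, and the 3 technical replicates of each group limit what any p-value here covers.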
